A study of Mus musculus with 16 samples.

Results

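The 10 genes described here encode the main parts of the MHC class I presentation machinery: the heavy chains *H2-K1* and *H2-D1*, the light chain *B2m*, the peptide transporter subunits *Tap1* and *Tap2*, the loading factor *Tapbp*, the transactivator *Nlrc5*, the immunoproteasome subunits *Psmb8* and *Psmb9*, and the trimming peptidase *Erap1*. They were chosen by name, and all 10 were found among the 55604 genes listed. Their transcripts were compared between tumor-associated macrophages (TAMs) of the mouse peritoneal cavity with and without the surface receptor Tim-4. *B2m* was higher in Tim-4+ TAMs, by 1.88-fold. *H2-K1* and *H2-D1* were 1.5-fold and 1.54-fold higher on average, which did not pass the test. The transporter, the immunoproteasome subunits and *Nlrc5* had fold changes slightly below 1, and none of them passed.

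Nearly all nucleated cells use this pathway to show samples of their own proteins to CD8+ T cells. Proteasomes cut cytosolic proteins, and the transporter carries the peptides into the endoplasmic reticulum (ER). There tapasin and its partners load them onto a heavy chain paired with β2-microglobulin, and the filled complex travels to the surface. Macrophages also load peptides from engulfed material on class I molecules, which is called cross-presentation. Interferons raise many genes of the pathway, and NLRC5 acts with DNA-binding proteins that sit on the X and Y boxes of class I promoters.

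The cells came from the peritoneal wash of C57BL/6 mice that carried ID8 tumors, a mouse ovarian cancer line that spreads in the peritoneum, for 6 to 7 weeks. The mice of the study were female and 6 to 8 weeks old. All 8 libraries are from tumor-bearing mice with no further treatment in the labels, so no tumor-free macrophages were compared. Tim-4+ TAMs were captured with an antibody to Tim-4 and magnetic beads, and Tim-4- TAMs were then taken from the remaining cells with beads against F4/80. Both subsets were measured in 4 numbered pairs (793, 784, 783 and 779), and n = 4 in each subset below.

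Each library held between 53527928 and 69594245 counts on genes, summed over 2 lanes. Levels are CPM, counts scaled to library size, after TMM scaling, a method that sets libraries on 1 scale from the bulk of their genes. *Timd4*, which encodes Tim-4, averaged 1149 CPM (SD 498) in Tim-4+ libraries and 30.1 CPM (SD 37.5) in Tim-4- libraries. Macrophage markers summed to between 43280 and 55720 CPM in Tim-4+ libraries and between 20880 and 33380 CPM in Tim-4- libraries, and 8 of 8 were detected. This sum is mostly *Lyz2*, at 33410 to 46930 CPM in Tim-4+ libraries and 16050 to 27080 CPM in Tim-4- libraries. Of the 8, 5 were called higher and *Mrc1* was called lower (log2 fold change -1.09, edgeR adjusted p = 0.0115). Markers of tumor and mesothelial cells summed to between 116.5 and 419.2 CPM in Tim-4+ libraries and between 471.2 and 2220 CPM in Tim-4- libraries. Of these 12 markers, 11 were called lower in Tim-4+ libraries by edgeR, and none was under 1 CPM in every library. Sums of the T and NK, B, dendritic and granulocyte marker lists were at most 75.8 CPM in any library. Of these, *Cd79b*, *Ighm* and *Blk* of the B cell list and *Zbtb46* and *Kit* of the dendritic list were called lower in Tim-4+ libraries, and *Cd209a* was called higher. The part of any marker list in the results below was not tested. In these bulk samples, a lower share of a cell type and less RNA per cell cannot be told apart.

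The promoters of the class I chains share an arrangement of motifs. The 250 bases before the RefSeq start site (GRCm38.p6) were searched in 8 of the 10 genes, for which the table had an entry. It had none for *Tap2* and *Nlrc5*. The sequences of the class I chains are shown because these are the genes with the largest fold changes. The interval between *Psmb9* and *Tap1* is shown because these neighbors are read from it in opposite directions. Capitals mark TGACG (the core of the X2 box, bound by CREB and ATF proteins), CCAAT or its reverse ATTGG (the Y box, bound by NF-Y) and a pair of GAAA with 2 bases of any kind between them (the interferon-stimulated response element, ISRE). The marked matches do not overlap each other. Each is written 5′ to 3′ on the strand named.
H2-K1, chr17:34000348-34000597, minus strand: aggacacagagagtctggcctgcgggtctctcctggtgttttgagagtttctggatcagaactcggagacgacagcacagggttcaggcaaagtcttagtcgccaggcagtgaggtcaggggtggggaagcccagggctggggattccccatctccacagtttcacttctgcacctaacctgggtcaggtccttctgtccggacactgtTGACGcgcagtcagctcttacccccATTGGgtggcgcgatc
H2-D1, chr17:35262844-35263093, plus strand: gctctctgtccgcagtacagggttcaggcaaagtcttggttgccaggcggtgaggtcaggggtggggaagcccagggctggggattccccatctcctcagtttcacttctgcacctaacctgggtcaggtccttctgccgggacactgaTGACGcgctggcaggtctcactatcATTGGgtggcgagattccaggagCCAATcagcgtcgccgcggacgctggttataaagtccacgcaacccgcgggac
B2m, chr2:122147437-122147686, plus strand: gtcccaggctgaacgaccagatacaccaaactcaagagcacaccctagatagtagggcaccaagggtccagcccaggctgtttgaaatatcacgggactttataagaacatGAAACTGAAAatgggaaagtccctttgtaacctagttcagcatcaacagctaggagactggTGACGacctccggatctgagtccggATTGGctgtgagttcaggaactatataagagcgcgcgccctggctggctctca
Psmb9 to Tap1 interval, chr17:34187331-34187555, plus strand: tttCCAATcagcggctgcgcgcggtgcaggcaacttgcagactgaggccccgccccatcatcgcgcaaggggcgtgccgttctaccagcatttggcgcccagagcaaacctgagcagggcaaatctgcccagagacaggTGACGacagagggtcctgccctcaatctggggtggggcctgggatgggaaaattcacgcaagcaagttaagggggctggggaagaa

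In the 3 class I chain promoters, TGACG was followed by ATTGG with 25 bases from start to start. It began at position -41 in *H2-K1*, -101 in *H2-D1* and -78 in *B2m*, counted from the RefSeq start. A second RefSeq start of *H2-K1*, whose window is not shown, puts this TGACG at -55 and adds a CCAAT at -6. On either strand, TGACG and ATTGG at this distance occurred in 30 of 32851 start windows of the whole table, or 0.0913%. They belong to 26 of 27025 genes, the 3 chain genes included. The distance was read from the 3 chain promoters themselves, so this share is a description and not a test. *H2-M3*, a non-classical class I gene, is another of the 26. Taken singly, the motifs are common. On either strand, CCAAT was in 6 of the 8 member promoters and 33.8% of all windows, and TGACG was in 5 of 8 and 17.8% of all. Of the 8, *B2m* alone matched the strict ISRE pattern used here, at position -139, and 2.98% of all windows hold such a match. Looser forms of the element were not searched. Both *H2-K1* and *H2-D1* hold agtttcacttct, left in lower case above, which the pattern does not cover. The interferon-gamma activated site TTCNNNGAA was found only in *Psmb8*, at position -97, and in 7.02% of all windows. The NF-κB pattern, GGG and CC with 5 bases of any kind between them, was in 5 of 8 and 45.8% of all windows. These matches describe letters in a window and not occupied sites. The *Tap1* and *Psmb9* interval holds a CCAAT and a TGACG, but not at that spacing. These matches, and those to the NF-κB pattern in the interval, are counted for both genes, so the 8 windows are not independent.

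The levels of the 10 genes fell into 3 tiers when expressed per length (RPKM, CPM divided by the exon length in kilobases). This length joins the exons of all annotated transcripts of a gene. It may exceed that of the transcripts present, so RPKM comparisons between genes depend on the annotation. The class I chains were the most abundant. *B2m* was 5098 ± 884 RPKM in Tim-4+ and 2693 ± 188 RPKM in Tim-4- libraries (SD, n = 4). *H2-D1* followed with 2115 ± 583 and 1341 ± 149 RPKM, and *H2-K1* with 1277 ± 395 and 824 ± 75.1 RPKM. *H2-D1* was above *H2-K1* in each of the 8 libraries, although their Tim-4+ ranges overlap. *Tapbp* stood alone in the middle, at 133 ± 23.1 and 113 ± 7.6 RPKM. The other 6 genes were between 12.9 and 35.5 RPKM on average. Among them, *Tap1* and *Psmb8* did not differ beyond their spread in either subset, and neither did *Tap2* and *Psmb9*. Together, *B2m*, *H2-K1* and *H2-D1* took between 0.955% and 1.44% of all gene counts in Tim-4+ libraries and between 0.869% and 1.04% in Tim-4- libraries.

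**Figure D1:**
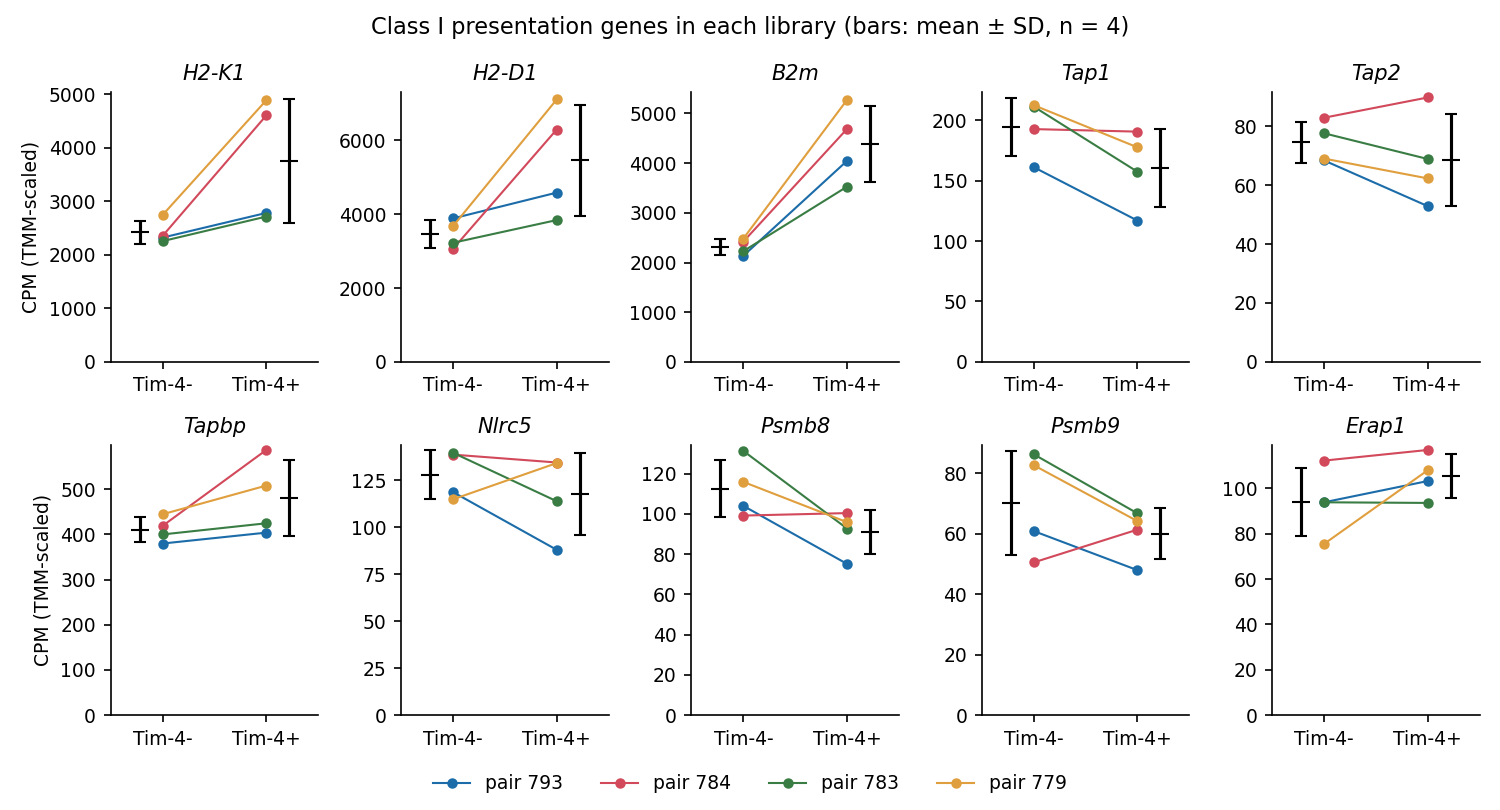
Level of each of the 10 genes (CPM, TMM-scaled, axes from 0) in the Tim-4- and Tim-4+ library of each pair, joined by a line, with the mean and SD of 4 libraries beside the points. The 4 Tim-4+ libraries of *B2m*, from 3527 to 5274 CPM, lie above all Tim-4- libraries, and the subsets overlap for the other 9 genes.

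*B2m* (ENSMUSG00000060802.8, GRCm38 chr2:122147686-122153083, plus strand) encodes β2-microglobulin, the light chain that every class I molecule needs to fold. In Tim-4+ TAMs its level was 4047, 4689, 3527 and 5274 CPM in pairs 793, 784, 783 and 779. In the Tim-4- TAMs of the same pairs it was 2135, 2420, 2228 and 2481 CPM. The subsets did not overlap, and the Tim-4- libraries lay close together. The log2 fold change of Tim-4+ over Tim-4- (log2FC) was 0.91 (standard error, SE, 0.17, edgeR adjusted p = 0.0135), and the single pairs gave log2 ratios between 0.66 and 1.09. *B2m* was the only 1 of the 10 members called at an adjusted p under 0.05, in a comparison in which 17.4% of 16861 tested genes were called and 8.97% were called higher. It was also the only member whose subsets did not overlap. All 4 Tim-4+ values lay above the Tim-4- values in 6.84% of tested genes. No 50-base window of its transcripts was shared with another gene.

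The *B2m* call changed with the pairs used. Without the pair in the fit, its log2FC was 0.92 with an edgeR adjusted p of 0.0524, and 1.38% of tested genes were called. Without pair 784 it was 0.89 (adjusted p = 0.0824), and without pair 779 it was 0.85 (adjusted p = 0.0618). In pairs 793 and 783 alone, whose Tim-4- libraries had the lower tumor and mesothelial sums, it was 0.79 (edgeR adjusted p = 0.0610). It stayed above 0 in each of the 13 settings tried, from 0.55 to 0.99.

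The heavy chains form the groove that holds the peptide. *H2-K1* (ENSMUSG00000061232.15, chr17:33996017-34000347, minus strand) was 2786, 4609, 2718 and 4893 CPM in Tim-4+ libraries of pairs 793, 784, 783 and 779. The Tim-4- values in the same order were 2324, 2355, 2258 and 2746 CPM. Pairs 784 and 779 had the high Tim-4+ values, and those of the other pairs were near the highest Tim-4- value. Its log2FC was 0.58 (SE 0.19, edgeR adjusted p = 0.0734).

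*H2-D1* (ENSMUSG00000073411.11, chr17:35262730-35267499, plus strand) was 4582, 6290, 3839 and 7103 CPM in Tim-4+ libraries and 3883, 3058, 3224 and 3671 CPM in Tim-4- libraries, in the same order of pairs. The pairs split as for *H2-K1*. Its log2FC was 0.62 (SE 0.21, edgeR adjusted p = 0.0801). Between pairs, the log2 ratio was 0.24 in pair 793, 0.25 in pair 783, 0.95 in pair 779 and 1.04 in pair 784. For *H2-K1* these ratios were 0.26, 0.27, 0.83 and 0.97. The sums of tumor and mesothelial markers in the Tim-4- libraries were 471.2 and 953.8 CPM in pairs 793 and 783, and 1418 and 2220 CPM in pairs 784 and 779, and whether they bear on the heavy chains was not tested.

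The call for the heavy chains changed with the method, and each passed in 2 of 13 settings. DESeq2 with the pair gave adjusted p-values of 0.00636 for *H2-K1* and 0.00792 for *H2-D1*, and it called 13.3% of all genes higher. edgeR without the count filter gave 0.0438 and 0.0436, and called 4.84% of all genes higher. With total-count scaling, *H2-K1* had a log2FC of 0.22 (edgeR adjusted p = 0.224) and *H2-D1* of 0.26 (edgeR adjusted p = 0.203). Of the 50-base windows of their transcripts, 9.63% (*H2-K1*) and 12.8% (*H2-D1*) also occur in other genes, most often in *H2-Q10* and *H2-Q1*, so a read from those windows matches several genes.

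Since the chains pair in equal numbers, their transcripts were also compared as a ratio within each library, which needs no scaling. The log2 ratio of *B2m* to the summed heavy chains was -1.04 ± 0.19 in Tim-4+ and -1.34 ± 0.16 in Tim-4- libraries (SD, n = 4). The ratio was higher in Tim-4+ libraries in 3 of 4 pairs, by 0.68, 0.40 and 0.19 in pairs 793, 783 and 779, and differed by -0.06 in pair 784. The mean difference was 0.30 (SD 0.31, exact paired permutation p = 0.250, two-sided). The smallest p that 4 pairs allow is 0.125. Ignoring the pairs, the exact permutation p was 0.0857, where 0.0286 is the smallest possible.

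**Figure D2:**
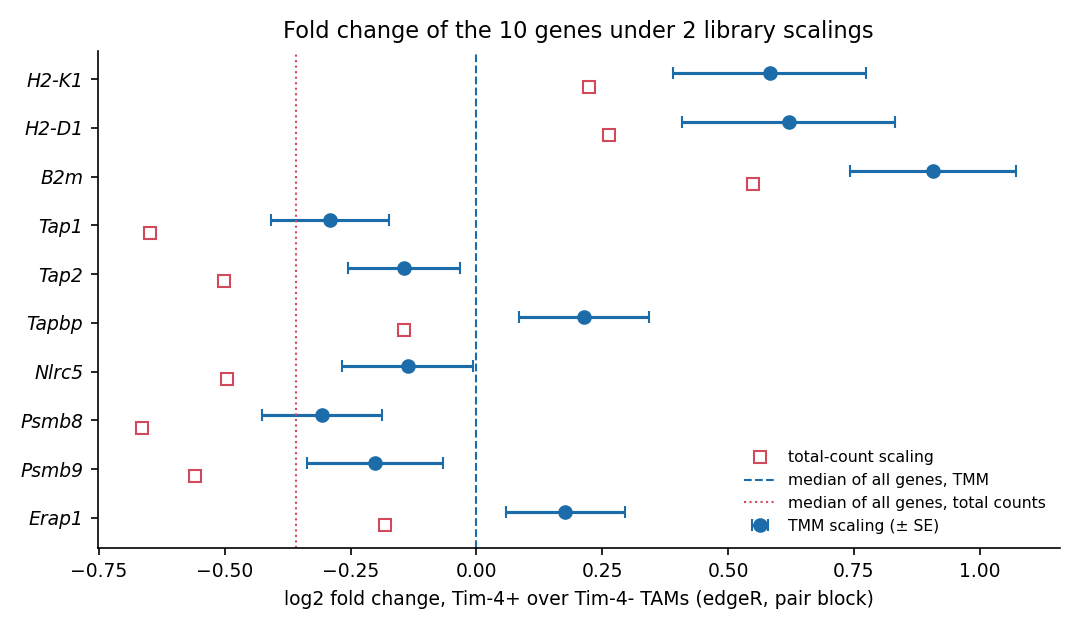
Log2 fold change of each gene, Tim-4+ over Tim-4- libraries, from edgeR with the pair in the fit, with TMM scaling (filled points, bars are ± SE) and with total-count scaling (open squares). Dashed and dotted lines mark the median of all tested genes under each scaling, -0.0012 and -0.36. The class I chains lie right of both lines in either scaling, while *Tapbp* and *Erap1* change sign between the scalings. All points move by nearly the same amount from one scaling to the other.

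The peptide transporter is a dimer of TAP1 and TAP2. *Tap1* (ENSMUSG00000037321.17, chr17:34187553-34197225, plus strand) was 117, 191, 157 and 178 CPM in Tim-4+ libraries of pairs 793, 784, 783 and 779. In Tim-4- libraries it was 161, 193, 211 and 212 CPM. It was lower on the Tim-4+ side of every pair, a pattern found in 20.2% of tested genes, though the subsets overlapped and pair 784 barely differed. Its log2FC was -0.29 (SE 0.12, edgeR adjusted p = 0.127).

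*Tap2* (ENSMUSG00000024339.12, chr17:34203527-34216321, plus strand) was between 52.8 and 89.8 CPM in Tim-4+ and between 68.4 and 82.9 CPM in Tim-4- libraries. Its log2FC was -0.14 (SE 0.11, edgeR adjusted p = 0.408), and the log2 ratio was above 0 in pair 784 alone, at 0.11.

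*Tapbp* (ENSMUSG00000024308.15, chr17:33915899-33929292, plus strand) encodes tapasin, which holds the empty class I molecule at the transporter. It was 404, 587, 424 and 508 CPM in Tim-4+ and 380, 419, 400 and 444 CPM in Tim-4- libraries. It was higher in all 4 pairs, but by 0.09 on the log2 scale in pairs 793 and 783. Its log2FC was 0.21 (SE 0.13, edgeR adjusted p = 0.286). With total-count scaling it was -0.14. Its transcripts overlap *Gm19412* on the other strand over 24.9% of their exon bases, and the strand setting of the counting is unknown. Overlaps with genes on the other strand also cover 18.5% of the exon bases of *Tap2*, 14.7% of *Psmb8* and 11.5% of *Erap1*. Smaller parts of *Tap1*, *Psmb9* and *Nlrc5* are covered too.

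*Erap1* (ENSMUSG00000021583.7, chr13:74639568-74693201, plus strand), which trims peptides in the ER to the length that fits the groove, was 103, 117, 93.6 and 108 CPM in Tim-4+ and 93.9, 112, 93.9 and 75.5 CPM in Tim-4- libraries. Its log2FC was 0.18 (SE 0.12, edgeR adjusted p = 0.339), and -0.18 with total counts. Pair 779, with a log2 ratio of 0.52, differed more than the others, which were between -0.0043 and 0.14.

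Immunoproteasome subunits replace the constitutive catalytic subunits of the proteasome in cells exposed to interferon and in many immune cells. *Psmb8* (ENSMUSG00000024338.14, chr17:34197721-34201454, plus strand), which encodes LMP7, was 75.1, 100, 92.7 and 95.9 CPM in Tim-4+ libraries of pairs 793, 784, 783 and 779. In Tim-4- libraries it was 104, 99.2, 131 and 116 CPM. Pair 784 showed almost no difference, and the other pairs were lower in Tim-4+ libraries. Its log2FC was -0.31 (SE 0.12, edgeR adjusted p = 0.113).

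*Psmb9* (ENSMUSG00000096727.2, chr17:34181987-34187764, minus strand), which encodes LMP2, was 47.9, 61.3, 66.7 and 64.1 CPM in Tim-4+ and 60.9, 50.5, 86.3 and 82.6 CPM in Tim-4- libraries. It was lower in Tim-4+ libraries in 3 pairs and higher in pair 784, at a log2 ratio of 0.28. Its log2FC was -0.20 (SE 0.14, edgeR adjusted p = 0.342).

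The exchange of subunits was read from ratios within libraries. The log2 ratio of *Psmb8* to *Psmb5*, the subunit it replaces, was 1.77 ± 0.34 in Tim-4+ and 1.89 ± 0.25 in Tim-4- libraries. The mean difference was -0.11 (SD 0.22, lower in 3 of 4 pairs, exact paired permutation p = 0.375). *Psmb9* to *Psmb6* was -0.64 ± 0.26 and -0.33 ± 0.45. Its difference of -0.31 (SD 0.24, lower in 3 of 4 pairs) had an exact paired permutation p of 0.250. *Psmb10* to *Psmb7* was 1.70 ± 0.12 and 1.53 ± 0.25, a difference of 0.17 (SD 0.33, lower in 2 of 4 pairs, exact paired permutation p = 0.500). The 4 ratios, that of *B2m* to the heavy chains included, had a Benjamini-Hochberg adjusted exact p of 0.500 each. In both subsets the counts of *Psmb8* and *Psmb10* exceeded those of *Psmb5* and *Psmb7*, although counts of different genes also depend on their lengths. Per exon length, *Psmb8* did not exceed *Psmb5*, at 26.9 and 30.3 RPKM in Tim-4+ and 33.3 and 33.8 RPKM in Tim-4- libraries. *Psmb10* still exceeded *Psmb7*, at 79.4 and 12.2 RPKM in Tim-4+ and 74.2 and 12.9 RPKM in Tim-4- libraries. The lengths join the exons of all annotated transcripts, at 3381 bases for *Psmb8*, 899 for *Psmb5*, 1705 for *Psmb10* and 3421 for *Psmb7*. They may exceed the length of the transcripts present, so both RPKM comparisons depend on the annotation.

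**Figure D3:**
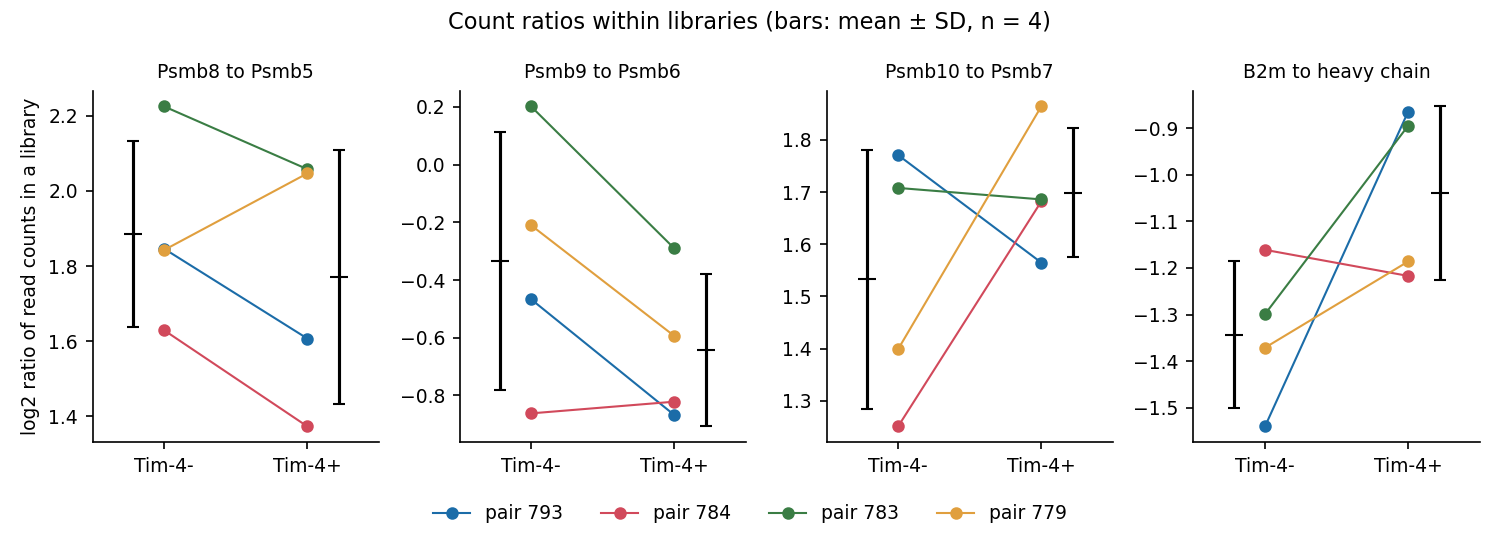
Log2 ratio of read counts of 2 genes in the Tim-4- and Tim-4+ library of each pair, for 3 immunoproteasome subunits over the subunits they replace and for *B2m* over the summed heavy chains (axes differ and do not start at 0, bars are mean ± SD of 4 libraries). In each panel at least 1 pair runs against the others, and the subsets overlap in all 4.

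*Nlrc5* (ENSMUSG00000074151.13, chr8:94434356-94527272, plus strand), the transactivator of class I genes, was 88.0, 134, 114 and 134 CPM in Tim-4+ libraries of pairs 793, 784, 783 and 779. In Tim-4- libraries it was 119, 139, 140 and 115 CPM. It was lower in Tim-4+ libraries in 3 pairs and higher in pair 779. Its log2FC was -0.14 (SE 0.13, edgeR adjusted p = 0.509).

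Over the 10 genes, 5 fold changes were above 0 and 5 below, with a median log2FC of 0.02, where that of all tested genes was -0.0012. All 10 passed the count filter. Of the 10, 4 (*H2-K1*, *H2-D1*, *B2m* and *Tapbp*) were higher on the Tim-4+ side of every pair, against 22.4% of tested genes. Scaling moved these counts. With total counts, the median of all tested genes was -0.36, and *B2m* was still called higher at 0.55 (edgeR adjusted p = 0.0163), as were 4.68% of tested genes. With that scaling *Tap1*, *Tap2*, *Nlrc5*, *Psmb8* and *Psmb9* were called lower, at log2FC values between -0.67 and -0.49, in a fit that called 29.1% of tested genes lower. Relative to the median of all genes, *Tap1*, *Tap2*, *Nlrc5*, *Psmb8* and *Psmb9* lay below and the class I chains above. The scalings move all genes by nearly the same amount, so this order cannot differ between them.

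A comparison inside each library does not depend on the scaling. *B2m* counts, divided by those of each other member, were higher on the Tim-4+ side of each pair against 7 of the 9, with mean log2 differences from 0.69 (*Tapbp*) to 1.21 (*Psmb8*). Against *H2-K1* and *H2-D1* the mean differences were 0.32 (SD 0.28) and 0.29 (SD 0.33), and pair 784 was slightly below 0 for both. These values describe the gap between the light chain and the rest, and they were computed after the fold changes had been seen.

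**Figure D4:**
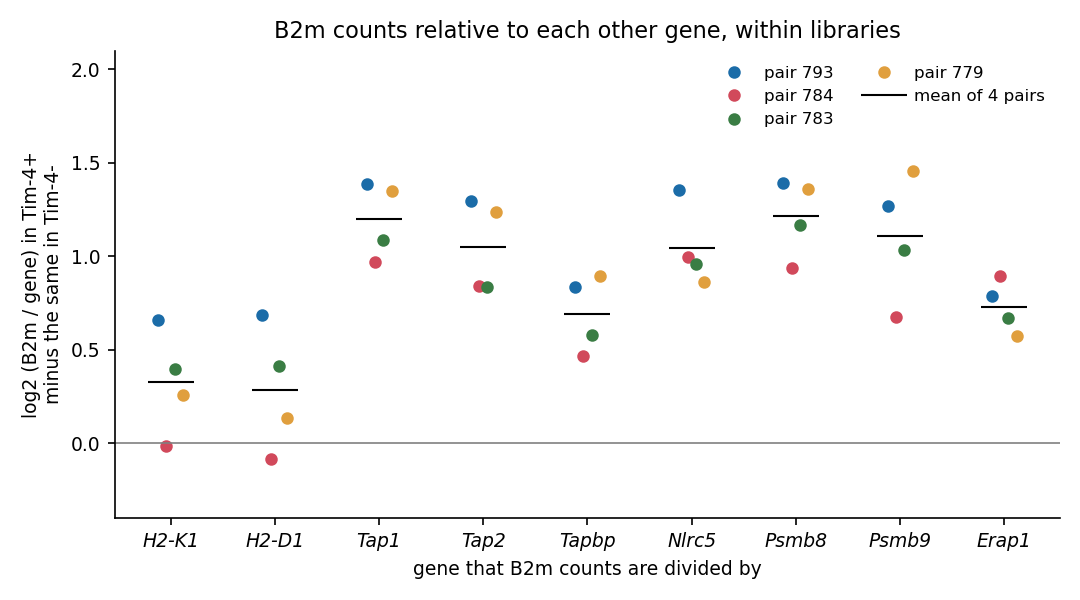
Tim-4+ minus Tim-4- difference in the log2 ratio of *B2m* counts to the counts of each other member, 1 point per pair, with the mean of 4 pairs as a line. All points lie above 0 for the 7 genes other than the heavy chains, and pair 784 lies just below 0 for *H2-K1* and *H2-D1*.

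Across the 8 libraries, some members varied together. As a description, Pearson's r of log2 CPM was 0.95 between *H2-K1* and *H2-D1*, 0.89 between *H2-K1* and *B2m* and 0.91 between *H2-K1* and *Tapbp*. It was 0.89 between *Tap1* and *Psmb8*, 0.84 between *Psmb8* and *Psmb9*, and 0.83 between *Tap1* and *Nlrc5*. *B2m* and *Psmb8* had an r of -0.60, and the median over all member pairs was 0.27. The 8 points share 2 subsets and 4 pairs, so they are not independent. Among 8760 other genes of at least 10 CPM, those closest to the members' mean z score over the 8 libraries were *Ring1* (r = 0.97), *Zfp777* (0.90), *Psme1* (0.90), *Zfp768* (0.89) and *H2-Q4* (0.87). They were picked as the highest of 8760 values over 8 libraries, and their r was not tested. The score averages 5 members with fold changes above 0 and 5 below, so genes close to it need not differ between subsets. None of the 5 closest genes did, at an edgeR adjusted p under 0.05.

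The remaining genes of the pathway were taken from lists by role. Among its immunoproteasome partners, 0 of 4 were called by edgeR, with a median log2FC of 0.02. These include *Psmb10*, the third immunoproteasome subunit, at 0.08 (adjusted p = 0.714), and *Psme1* at 0.15 (adjusted p = 0.394), part of the PA28 cap. The 3 constitutive catalytic subunits were not called either, with a median of -0.09. In the rest of the proteasome core, 1 of 11 was higher and 1 lower, where edgeR called 8.97% of tested genes higher and 8.43% lower. *Psmb2* had a log2FC of 0.49 (SE 0.11, edgeR adjusted p = 0.0237) and *Psmb4* of -0.51 (SE 0.12, edgeR adjusted p = 0.0287). Of 7 peptidases of the cytosol and endosomes, 0 were called, with a median of -0.09. Under total-count scaling the median of all genes was -0.36, and 29.1% of tested genes were called lower. In that fit 5 of the 7 peptidases were called lower (median -0.45). So were 8 of the 11 core subunits, with none higher (median -0.42), and 2 genes each of the partners and of the constitutive catalytic subunits.

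Among genes that fold and load class I molecules, 2 of 8 were higher in Tim-4+ libraries and none lower, with a median of 0.23. Of all tested genes, edgeR called 8.97% higher and 8.43% lower. With total-count scaling 1 of the 8 was higher and 2 lower, and the median was -0.13. That fit called 4.68% of tested genes higher and 29.1% lower. *Calr* encodes calreticulin, the chaperone that recruits class I molecules to the loading complex. It was 1531, 1522, 1178 and 1800 CPM in Tim-4+ libraries and 875, 760, 881 and 1063 CPM in Tim-4- libraries. The subsets did not overlap, and its log2FC was 0.75 (SE 0.15, edgeR adjusted p = 0.0185). *Pdia3* encodes ERp57, the disulfide isomerase bound to tapasin. It was between 646 and 983 CPM in Tim-4+ and between 532 and 609 CPM in Tim-4- libraries, with a log2FC of 0.53 (SE 0.14, edgeR adjusted p = 0.0430). Both proteins also fold many other glycoproteins.

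In the cross-presentation list, 2 of 8 were higher (against 8.97% of tested genes) and none lower (against 8.43%), with a median of 0.28. Total-count scaling gave 1 higher and 1 lower (against 4.68% and 29.1% of tested genes) and a median of -0.079. *Cybb*, a subunit of the phagosomal NADPH oxidase, was 2672 ± 908 CPM in Tim-4+ and 1235 ± 447 CPM in Tim-4- libraries (SD, n = 4), with a log2FC of 1.11 (SE 0.22, edgeR adjusted p = 0.0168). *Derl1*, a component of the machinery that exports proteins from the ER, had a log2FC of 0.68 (SE 0.14, edgeR adjusted p = 0.0194). Both were higher in all 4 pairs.

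Of 20 class I-like genes, 18 were tested, with a median of 0.24. Of these 18, 1 was higher and 2 were lower, against 8.97% and 8.43% of tested genes. With total-count scaling none was higher and 4 were lower, against 4.68% and 29.1% of tested genes, and the median was -0.12. *H2-T24* was 59.5 ± 17.0 CPM in Tim-4+ and 35.4 ± 3.36 CPM in Tim-4- libraries, a log2FC of 0.71 (SE 0.15, edgeR adjusted p = 0.0202). *H2-M2* was scarce, at 7 to 22 counts in Tim-4+ libraries and 50 to 180 counts in Tim-4- libraries, and its log2FC was -2.32 (SE 0.50, edgeR adjusted p = 0.0215). *Fcgrt*, which encodes the neonatal Fc receptor and needs β2-microglobulin as its light chain, had a log2FC of -0.66 (SE 0.14, edgeR adjusted p = 0.0202), opposite in direction to *B2m*. Of the 18 tested genes of this list, 13 lay above 0, as *B2m* did, and 5 below. Genes of the H2-Q and H2-T groups share sequence with each other and with the heavy chains, so their values are uncertain.

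Of 23 regulators upstream of the members, 22 were tested, with a median log2FC of 0.08. Those called higher were *Irf2*, *Ifnar2* and *Nfyc*, in a fit that called 8.97% of tested genes higher. With total-count scaling 2 of the 22 were higher and 5 lower, and the median was -0.28. That fit called 4.68% of tested genes higher and 29.1% lower. *Irf2*, an interferon regulatory factor that binds ISRE-type elements, was 266, 194, 140 and 263 CPM in Tim-4+ libraries and 146, 86.9, 86.1 and 82.5 CPM in Tim-4- libraries. Its log2FC was 1.1 (SE 0.17, edgeR adjusted p = 0.00912). *Ifnar2*, a chain of the type I interferon receptor, was between 115 and 146 CPM in Tim-4+ and between 62.8 and 80.5 CPM in Tim-4- libraries. Its log2FC was 0.89 (SE 0.13, edgeR adjusted p = 0.00875), and its subsets did not overlap. *Ifnar1*, the other chain of that receptor, was at -0.05 (edgeR adjusted p = 0.820). *Nfyc*, a subunit of the NF-Y complex that binds the Y box, had a log2FC of 0.51 (SE 0.11, edgeR adjusted p = 0.0191). The other NF-Y subunits did not follow it. *Nfyb* was at -0.18 (edgeR adjusted p = 0.386), and *Nfya*, with at most 3 counts in any library, was not tested. Without the pair in the fit, *Ifnar2* alone of *Irf2*, *Ifnar2* and *Nfyc* was called (edgeR adjusted p = 0.0413).

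**Figure D5:**
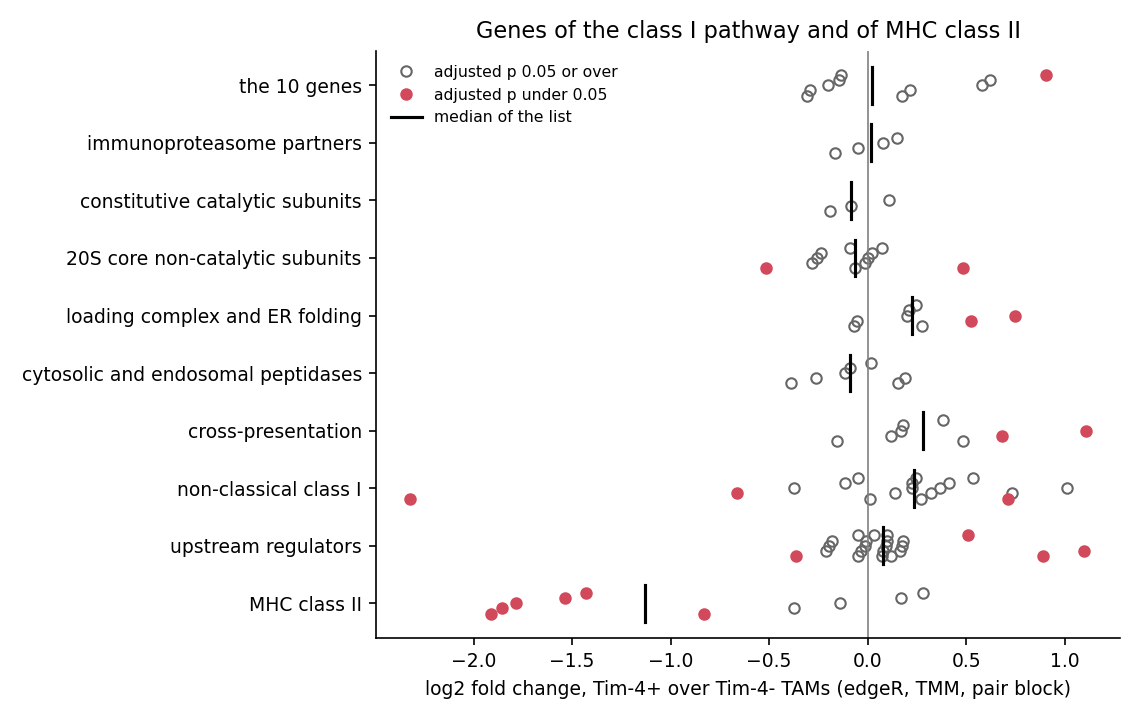
Log2 fold change, Tim-4+ over Tim-4- libraries, of each tested gene (points, filled where the edgeR adjusted p was under 0.05) in the 10 members and in 9 lists of related genes, with the median of each list as a bar. The members center on 0.02 with *B2m* as the only filled point, and the MHC class II list centers on -1.13.

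The genes of MHC class II, which present peptides from engulfed proteins to CD4+ T cells, were in part lower in Tim-4+ libraries, opposite in direction to *B2m*. Of 10 genes, 6 were called lower and none higher, where edgeR called 8.43% of tested genes lower, with *H2-Eb1* at -1.91, *H2-Aa* at -1.85, the transactivator *Ciita* at -1.78 and the invariant chain *Cd74* at -1.53 (edgeR adjusted p = 0.00875, 0.0104, 0.0141 and 0.0185). The 4 genes not called were *H2-Ob* (log2FC -0.37), *H2-DMa* (-0.14), *H2-DMb2* (0.17) and *H2-Oa* (0.28), so that 2 lay above 0. Without the pair in the fit *H2-Eb1*, *H2-Aa*, *Ciita* and *Cd74* had edgeR adjusted p-values between 0.138 and 0.251.

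The calls outside the 10 members also changed with the pairs and the fit. Each called gene named above from the pathway lists and the class II list missed the threshold without pair 784, with edgeR adjusted p-values between 0.0580 (*Fcgrt*) and 0.158 (*Pdia3*). Without the pair in the fit, the named genes of the proteasome, loading, cross-presentation and class I-like lists had edgeR adjusted p-values between 0.0578 (*H2-M2*) and 0.334 (*Fcgrt*). With total-count scaling, *Psmb2*, *Pdia3*, *Derl1*, *H2-T24* and *Nfyc* were no longer called, with log2FC values still above 0. Without pair 779, where *B2m* was not called, *Irf2*, *Ifnar2*, *H2-M2*, *H2-Eb1* and *H2-Aa* still were.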

How the data were processed

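RNA of 4 Tim-4+ and 4 Tim-4- TAM libraries was made with a stranded total RNA kit after ribosomal RNA removal and read in pairs of 50 cycles. The authors deposited raw counts per gene for each lane, without normalization. The submitters' notes name FastQC 0.11.3, TopHat2 2.0.13, Cufflinks, Cuffdiff 2.2.1 and GRCm38, while the methods give a human reference. The counter and its strand setting are not given in the sources used here. Reads with several alignments were left out of the gene counts by the authors, and those on 2 overlapping genes were set apart as ambiguous. The latter equaled 4.87% to 5.63% of gene counts in the 15 lanes listed by Ensembl identifier. Reads with several alignments equaled 11.2% in lane 2 of the Tim-4- library of pair 779. In the others of these lanes they equaled 28.9% to 36.4%, and the reason was not tested.

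Here the 2 lanes of a library were summed. The lane listed by gene symbol (Tim-4-, pair 793) was joined by row order, with all 10 members matched by symbol. Names and coordinates are from GENCODE M21. Genes with at least 10 counts in 4 of 8 libraries were tested with edgeR 4.0.16 in R 4.3.3 (TMM, robust quasi-likelihood test, pair as a block, Benjamini-Hochberg adjustment over 16861 genes, threshold 0.05). The SE is the log2 fold change divided by the root of F. The pairing comes from the label numbers and the study's description of paired subsets, and the libraries of a pair deviated together (r = 0.277 to 0.498 across genes). The labels do not say whether a pair is 1 mouse or a pool, so p-values measure only the spread between these samples, which may be technical. Pairs were swapped in exact two-sided permutation tests of ratios. Totals ranged from 53527928 to 57768202 counts in Tim-4+ and from 55618306 to 69594245 in Tim-4- libraries, and they limit only counting error.

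Beyond the 10 members and *Timd4*, genes named were up to 4 per pathway list with the largest called change and 1 direction in all 4 pairs, the proteasome subunits of the ratios, and the 5 genes closest in pattern to the members. Some uncalled genes of the pathway lists are given beside them. The result of 1 gene of these lists is not reported here. The members, lists and motifs were chosen with earlier results of these data known. Calculations were tested on simulated data. DESeq2 1.42.0, other scalings, filters and pair sets were alternatives.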

Additional observations from a re-analysis of the deposited data

How the results depend on the processing

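The count of 1 called member became 6 with total counts (1 higher and 5 lower), 3 without a count filter, 3 with DESeq2 and the pair, and 0 in pairs 793 and 783 alone, a setting added after seeing the data. Without the replicate block it was 0. Over all genes, the 2933 calls became 5695, 4527, 454 and 232 with total counts, DESeq2, those 2 pairs and no replicate block. With 1 pair left out, 158 (without 784) to 3586 genes and 0 to 1 members were called, 0 without pair 784 or 779. Total counts turned the log2 fold changes of *Tapbp* (-0.14), *Erap1* (-0.18), *Psmb6* (-0.25) and *Psmb10* (-0.28). With 1 pair left out, *Psmb10* was between -0.060 and 0.15 and *Psmb7* between -0.14 and 0.018, and in pairs 793 and 783 *Psmb10* was -0.12. The causes were not tested. The ratio tests cannot pass with 4 pairs. Depth limited these results little, since every member had at least 2281 counts in each library.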
